A study of Mus musculus with 8 samples.

Results

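The opioid system of the trigeminal ganglion was described through the 8 genes of its peptide precursors (Pdyn, Penk, Pomc and Pnoc) and its receptors (Oprm1, Oprd1, Oprk1 and Oprl1), in ganglia of control mice and of mice carrying a daDREAM transgene. These genes were listed by name, not by a threshold on their values, and every probe set whose platform annotation gives one of these symbols alone was taken, which gave 15 of 34945 probe sets with a single symbol and 8 of 18193 genes. Total RNA of trigeminal ganglia, which house the sensory neurons that innervate the face and head, was hybridised to 8 Affymetrix mouse arrays, 4 of control mice and 4 of daDREAM transgenic mice. Both groups are labelled as adult males of the strain C57B/6XCBA, with genotype control or daDREAM transgenic, and all 4 transgenic titles carry the line tag tg16. DREAM is a calcium-regulated repressor of transcription, and daDREAM is a mutant form made to stay active. The arrays are named here by group and replicate number, C1 to C4 for control and D1 to D4 for daDREAM. The replicates are called biological in the labels. The promoter of the transgene and the number of animals behind an array are not stated in the labels, and with a single line the transgene and its insertion site cannot be told apart.

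Opioid peptides are cut from large precursors by proteases in secretory granules. Pdyn is the precursor of dynorphins, Penk of enkephalins, Pomc of beta-endorphin and of pituitary hormones, and Pnoc of nociceptin. The receptors are coupled to inhibitory G proteins. Oprm1 encodes the mu receptor, the main target of morphine, Oprd1 the delta receptor, Oprk1 the kappa receptor for dynorphins, and Oprl1 the nociceptin receptor. In sensory ganglia these receptors dampen transmitter release from pain fibres. DREAM was first described as a repressor that binds a downstream regulatory element of the prodynorphin gene, and the series asked how it acts in pain mechanisms of the ganglion.

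The core letters of that element, GTCA, were searched on both strands of the RefSeq windows (GRCm38.p6) around the start sites of these genes. A window runs from 250 bases before to 50 bases after a start. Windows were found for 5 of the 8 genes, 10 windows in all, namely those of Pdyn, Pomc, Oprm1, Oprd1 and Oprl1. Each of the 10 held a match, and so did 85.23% of 32851 windows of this length, so a match in 1 window is the common case. The letters GTCA also form one side of the cyclic AMP response element, and the search did not tell these apart. The window of the upstream Pdyn start held 3 matches, all before the start, and that of the downstream Pdyn start held 5, of which 2 lay after it. The 3 Oprl1 windows held 1, 1 and 3, those of Oprm1 2, 1 and 1, that of Pomc 2 and that of Oprd1 1. The median over all windows was 2 matches. The downstream pair of Oprm1 windows overlap and share their match. Of the matches, 8 are shown: 5 of 8 for Pdyn, the repressor's best known target, which are all of the upstream start and those after the downstream start; 2 of 5 for Oprl1, the only gene here with a called probe set; and 1 of the first Oprm1 start, since the 4 Oprm1 probe sets read lower in transgenic ganglia. Capitals mark GTCA, or TGAC where the match lies on the other strand, and the number in brackets is the distance of the first capital from the start named, with starts numbered along the gene.
Pdyn start 1 (-208), chr2:129700130-129700159, minus strand: ctctgttttcctgTGACactctcctggaga
Pdyn start 1 (-166), chr2:129700088-129700117, minus strand: gccgcattgaaagTGACaaacagcgctaca
Pdyn start 1 (-29), chr2:129699951-129699980, minus strand: ggggtctgagcgtTGACtgctctgccactc
Pdyn start 2 (11), chr2:129698632-129698661, minus strand: gacaggcgttgctGTCAagatctgttgcaa
Pdyn start 2 (41), chr2:129698609-129698631, minus strand: aacctctcagaatGTCAgtcctt
Oprl1 start 2 (-83), chr2:181715252-181715281, plus strand: ctcctgctgctgcTGACagagctgggggtg
Oprl1 start 3 (-27), chr2:181715650-181715679, plus strand: gtccagcactgtgGTCActtctttctgtgt
Oprm1 start 1 (-232), chr10:6758348-6758377, plus strand: cagagatgtgttgGTCAaatcaccataaga
These matches are a description of letters, and binding of DREAM was not measured here.

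Levels are RMA values on the log2 scale. Each mean carries its SD over the 4 arrays of a group, and a difference is the transgenic mean minus the control mean. A probe set or gene passed the test at a limma adjusted p under 0.05 over all 45037 probe sets or all 18193 genes. The level of unexpressed genes was read from 44 probe sets of olfactory receptors, which are not expected in a ganglion. Their means over the 8 arrays had a median of 5.07 and a 95th percentile of 6.66, which is called the background level below. Probe sets differ in how well they bind, so this level is a guide and not a limit for each one. The background level was exceeded by 5 of the 15 opioid probe sets, those of Penk and Oprl1 and 1 of the 2 for Pomc. The other 10 lay at or below it.

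Several arrays stood apart. Xist, expressed from the inactive X chromosome of females, read 10.20 and 11.72 on C3 and C4 and 11.51 on D4, against 6.10 to 6.49 on the others, although all samples are labelled male. The Y-linked gene Eif2s3y read 4.46 on D4, 7.16 on C4 and 8.40 to 9.04 on the others, so that C3 and C4 carried signal of both genes. Gh, a pituitary hormone gene, was highest on D4 and D3 (13.43 and 12.50) and C3 (11.15). The signal of 18S ribosomal RNA was 10.00 and 11.06 on C1 and C4 and 8.33 to 8.66 on the others, and the muscle actin Acta1 was highest on C1 and C3 (9.20 and 9.40). The 11 of 12 sensory neuron markers that were measured all exceeded the background level, with a mean of 12.19 to 12.36 over control and 12.22 to 12.37 over transgenic arrays. In bulk RNA, fewer cells of a type and less RNA per cell cannot be told apart.

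Among the opioid probe sets, 1 of 15 passed the test, against 2.74% of all probe sets, and this was an Oprl1 probe set that was higher in transgenic ganglia. No opioid gene passed when each gene was represented by its brightest probe set (0 of 8 with limma), against 2.00% of all genes. By an unequal-variance test 0 of the 8 passed, and only 49 of all 18193 genes. At an unadjusted p under 0.05 there were 2 of the 8, against 18.2% of all genes. Oprl1 read higher at all 3 of its probe sets. Oprm1 read lower at all 4 of its probe sets, all of them at or below the background level. Groups did not overlap at 3 of the 15 probe sets, against 11.0% of all probe sets, and at 1 of the 8 genes, against 10.7% of all genes. The median difference was 0.01 over the 15 opioid probe sets and -0.01 over all probe sets.

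**Figure D1:**
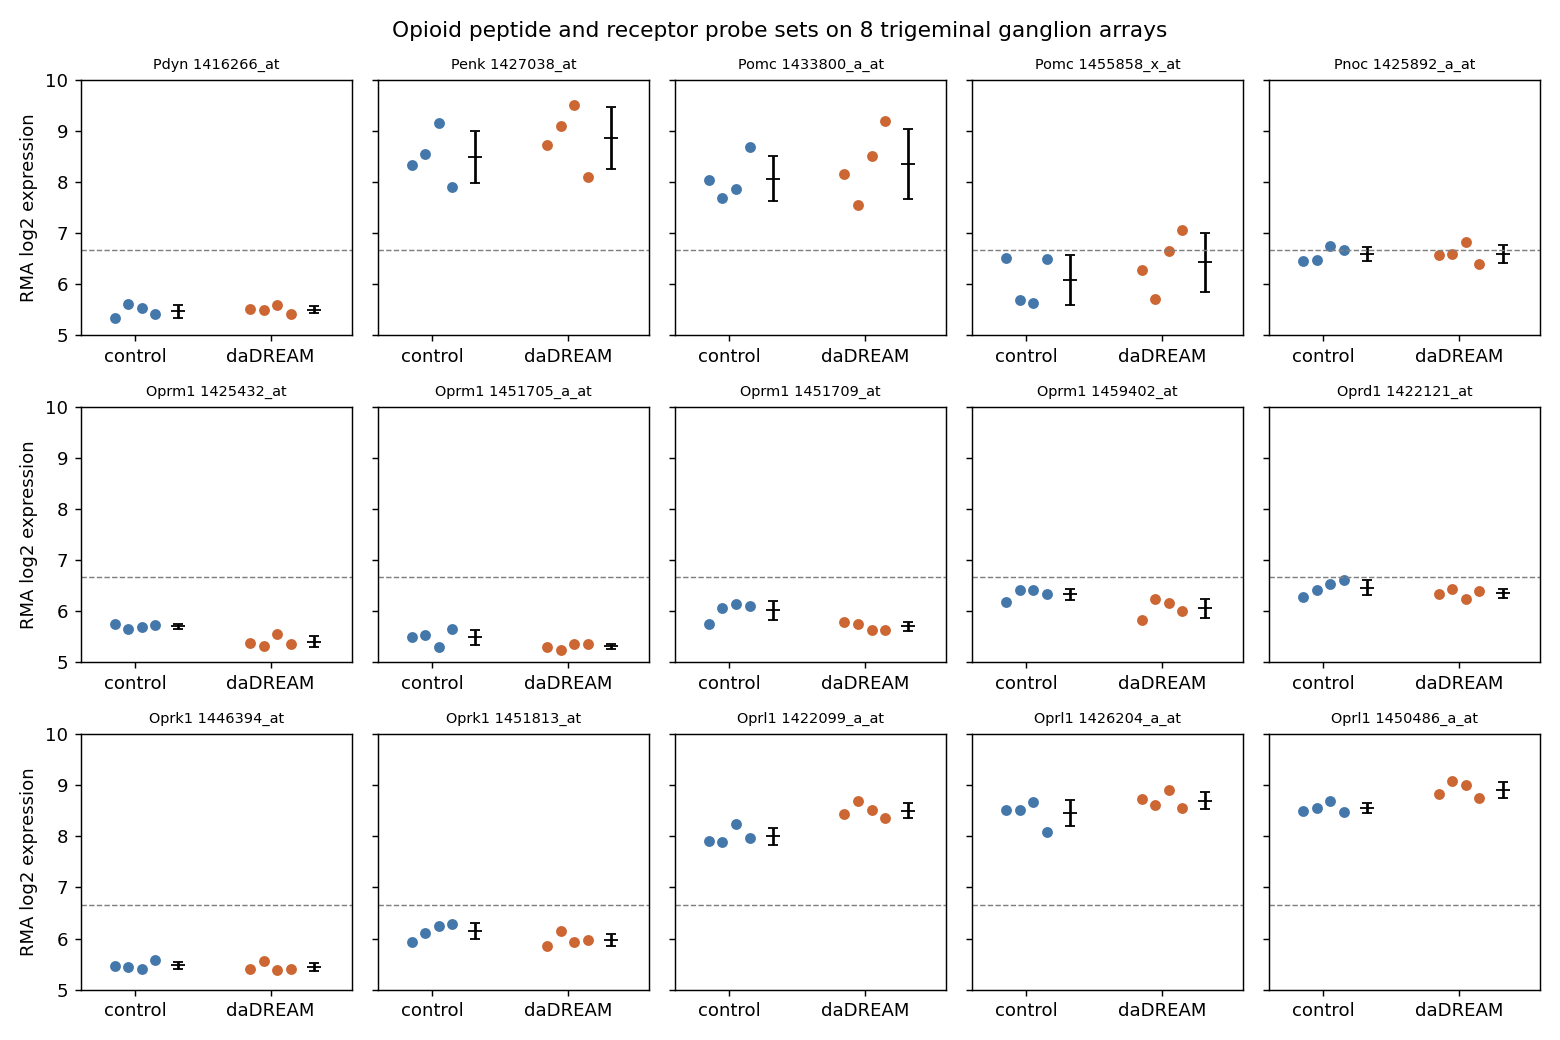
RMA log2 expression of the 15 opioid probe sets, 1 panel each, with 1 point per array (blue control, orange daDREAM), bars for mean ± SD of n = 4, and a dashed line at the background level of 6.66. The Oprl1 points lie above the line with transgenic arrays higher at 1422099_a_at and 1450486_a_at, and the Oprm1 points lie below the line.

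The enkephalin precursor Penk lay well over the background level and varied widely between arrays of one group. The values of Penk (1427038_at) were 8.34, 8.55, 9.15 and 7.91 on C1 to C4 and 8.73, 9.10, 9.51 and 8.09 on D1 to D4. The groups overlapped widely, and C4 and D4 were the lowest arrays of their groups. The replicate numbers had the same order in both groups, and each transgenic array read higher than the control array of its number. From 8.49 ± 0.52 to 8.86 ± 0.60, Penk differed by 0.37 (SE 0.29, 95% interval -0.27 to 1.01, limma adjusted p = 0.529 over probe sets). With the replicate number as a block, its limma adjusted p was 0.0351. In that fit 2017 of all probe sets passed, against 1236 without the block. Over all probe sets above background, C1, C3 and C4 correlated best with the array of their own number, but C2 did not. The main fit therefore has no block, and the closing section gives the correlations. Without C1 and C4, which had the highest 18S ribosomal signal, the difference was 0.01, and without the arrays with female signal it was 0.67 (limma adjusted p = 0.143 over probe sets).

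Pomc varied between arrays more than between groups. The brighter Pomc probe set, 1433800_a_at, read 8.04, 7.68, 7.87 and 8.68 on C1 to C4. On D1 to D4 it read 8.16, 7.54, 8.51 and 9.19. The highest array was D4 and the lowest D2, so the transgenic group spanned the whole range of the control group. Means of 8.07 ± 0.43 and 8.35 ± 0.69 gave a difference of 0.28 (SE 0.30, limma adjusted p = 0.651 over probe sets), which was 0.0025 without D4 and 0.55 without D2. The dimmer probe set, 1455858_x_at, whose suffix marks probes that may bind other transcripts, read 5.64 to 6.51 on control and 5.72 to 7.07 on transgenic arrays, with a difference of 0.34 (SE 0.28, adjusted p = 0.540). It too was highest on D4.

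Pomc is a major product of the pituitary, which lies beside the trigeminal ganglia. Other pituitary hormone genes varied over the same arrays: Cga, the common subunit of glycoprotein hormones, read 10.11 on D4 and 6.49 to 7.88 on the others, and Prl, prolactin, read 12.50 there, 11.86 on C3 and 6.72 on D2. Of 9 pituitary markers 8 were measured and 4 exceeded the background level, namely Gh, Prl, Cga and Ghrhr. Ghrhr varied little, from 7.39 on D3 to 7.70 on D4. Tshb, Lhb, Fshb and Tbx19, the last a regulator of Pomc-producing cells, did not exceed the background level. The mean of the 8 ran from 6.69 to 7.63 on control and from 6.54 to 8.51 on transgenic arrays. On C4, in contrast, a high Pomc signal (8.68) stood beside a low Gh signal (9.08). On C3 the reverse held, with Gh at 11.15 and Prl at 11.86 beside Pomc values of 7.87 and 5.64. After centring each group on its mean, Pomc correlated with Gh at r = 0.64, Prl at 0.65 and Cga at 0.79. Of the other genes compared, Xist gave 0.76, the collagen gene Col1a1 0.79, Eif2s3y -0.82, Gfap -0.45 and Acta1 -0.15. Without the arrays with the most Gh (C3, D3 and D4), the Pomc differences turned to -0.28 and -0.24 (limma adjusted p = 0.677 and 0.710 over probe sets). D3 and D4 were also the transgenic arrays with the highest Pomc at both probe sets. Leaving them out lowers the transgenic Pomc mean whatever their Gh. The part of pituitary RNA in the Pomc signal was not tested.

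**Figure D2:**
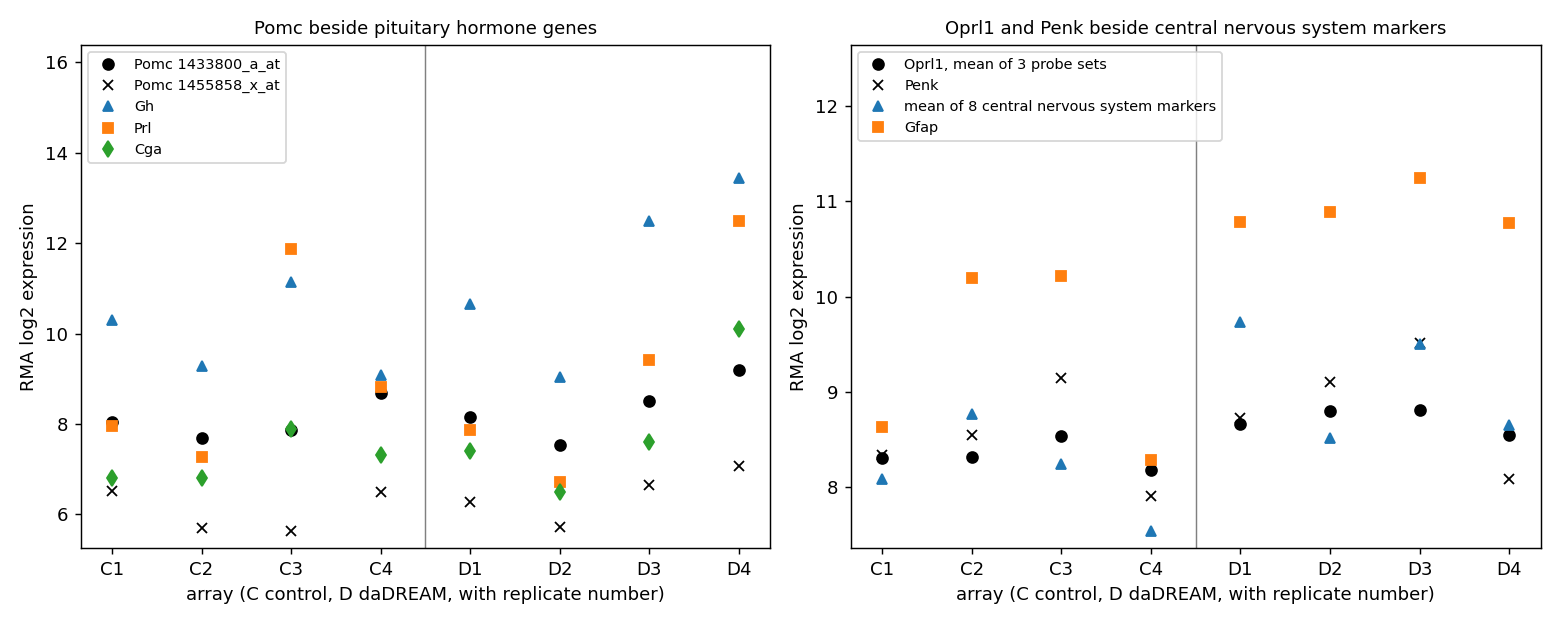
RMA log2 expression on each of the 8 arrays (C1 to C4 control, D1 to D4 daDREAM, 1 point per array and gene). In the left panel both Pomc probe sets and the pituitary genes Gh and Cga are highest on D4; in the right panel the mean of the 3 Oprl1 probe sets is 8.55 to 8.81 on D arrays and 8.18 to 8.54 on C arrays, beside Penk, Gfap and the mean of 8 central nervous system markers.

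The remaining precursors lay at or below the background level in both groups. Pdyn (1416266_at) read 5.33, 5.61, 5.53 and 5.41 on C1 to C4 and 5.52, 5.50, 5.59 and 5.41 on D1 to D4. The groups overlapped throughout, and 70.5% of olfactory receptor probe sets had a lower mean. The difference in Pdyn was 0.04 (SE 0.08, 95% interval -0.14 to 0.21, limma adjusted p = 0.855 over probe sets). Pnoc (1425892_a_at) read 6.46, 6.48, 6.74 and 6.66 on C1 to C4 and 6.57, 6.59, 6.83 and 6.40 on D1 to D4, with a mean just under the background level and overlapping groups. Its difference was 0.01 (SE 0.10, 95% interval -0.21 to 0.24, adjusted p = 0.964). At these signals a change in either transcript may not show on the array.

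Oprl1 was the only receptor gene whose probe sets exceeded the background level, and its 3 probe sets read higher in transgenic ganglia. At 1422099_a_at the control arrays read 7.91, 7.88, 8.25 and 7.97 for C1 to C4. The transgenic arrays read 8.44, 8.70, 8.52 and 8.35 there. All transgenic values lay above all control values, the closest being C3 and D4. This probe set rose 1.41-fold, from 8.00 ± 0.17 to 8.50 ± 0.15 (difference 0.50, SE 0.10, 95% interval 0.28 to 0.72, limma adjusted p = 0.0234 over probe sets). Its p was the 839th smallest of the 45037.

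The brightest Oprl1 probe set, 1450486_a_at, read 8.49, 8.55, 8.69 and 8.48 on C1 to C4 and 8.82, 9.08, 9.00 and 8.74 on D1 to D4. The groups did not overlap here either, but the difference of 0.36 (SE 0.09, limma adjusted p = 0.0654 over probe sets) did not pass. It represents Oprl1 among genes, where its adjusted p was 0.0772. Both of these probe sets are annotated with the same sequence record and may read overlapping parts of the transcript, so they are not independent of each other. The remaining probe set, 1426204_a_at, read 8.51, 8.52, 8.68 and 8.09 on C1 to C4 and 8.73, 8.61, 8.91 and 8.55 on D1 to D4. There the groups overlapped, and the difference was 0.25 (SE 0.12, adjusted p = 0.310).

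The mean of the 3 Oprl1 probe sets was 8.33 ± 0.15 in control and 8.70 ± 0.12 in transgenic ganglia, with values of 8.18 to 8.54 and 8.55 to 8.81. An exact permutation test (two-sided, 70 ways to assign the arrays) gave p = 0.0286, the smallest it can give. In all, 8 such tests were run, 1 per gene, without adjustment. Any gene whose groups do not overlap gets this p, and 10.7% of all genes had such groups at their brightest probe set. The call at 1422099_a_at was lost without C1, C2 or C4 or D1, D2 or D3 (adjusted p from 0.0517 to 0.0823 in these 6 fits) and held without C3 or D4. Without C1 and C4, the difference was 0.44 (limma adjusted p = 0.182), and with an unequal-variance test the adjusted p was 0.188. Over all 20 alternatives this probe set passed in 12, with differences of 0.43 to 0.66.

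Markers of central nervous tissue also read higher on average in the transgenic group. All 8 had differences above 0. Of them 1 passed, against 2.00% of all genes, namely Aqp4, the astrocyte water channel (0.76, limma adjusted p = 0.0173 over genes). Their mean ran from 7.54 to 8.77 on control and from 8.51 to 9.73 on transgenic arrays, and 7 of 8 exceeded the background level. Gfap, the astrocyte filament, read 8.29 to 10.22 on control and 10.77 to 11.24 on transgenic arrays, and Aqp4 read 10.41 to 11.07 and 11.25 to 11.56, both without overlap. After centring each group on its mean, Gfap correlated over the 8 arrays with Oprl1 at r = 0.52 and with Penk at r = 0.68. Gfap was not the closest of the genes compared, as the Y-linked Eif2s3y gave 0.59 and 0.70. The remaining genes ran from -0.54 (Cga) to 0.20 (Acta1) for Oprl1 and from -0.52 (Col1a1) to 0.38 (Acta1) for Penk. The part of such tissue in the Oprl1 and Penk signals was not tested. Of 7 measured leukocyte markers 1 passed, against 2.00% of all genes. This was S100a8, a granulocyte protein, which rose by 1.03 (limma adjusted p = 0.00038 over genes). The mean of the 7 was 6.65 to 6.77 on control and 6.74 to 6.93 on transgenic arrays. Their differences were above 0 for 5 and below 0 for 2. The lower ones were Cd3e (-0.25, limma adjusted p = 0.158 over genes, without overlap) and Cd3g (-0.215). Of 6 fibroblast markers 0 passed, with 2 differences above 0 and 4 below. Dcn and Lum differed by -0.50 each (limma adjusted p = 0.0718 and 0.214 over genes), Dcn without overlap. All 5 muscle markers read lower on transgenic arrays and none passed, with a mean of 6.47 to 8.42 on control and 6.39 to 6.56 on transgenic arrays. Their part in the Oprl1 difference was not tested. Without the arrays with the most Acta1 (C1 and C3), that difference at 1422099_a_at was 0.58 (limma adjusted p = 0.0409 over probe sets). C3 was also the highest control array there (8.25), so leaving it out lowers the control mean whatever its Acta1.

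**Figure D3:**
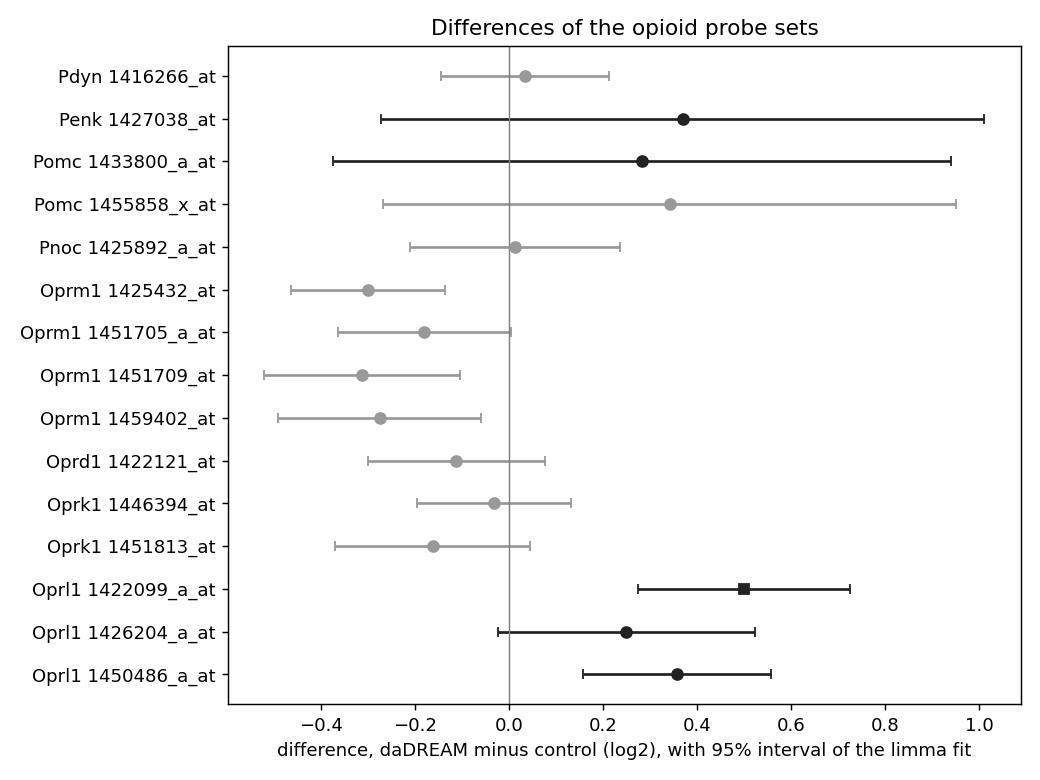
Difference in log2 expression, daDREAM minus control, for each opioid probe set with the 95% interval of the limma fit (n = 4 arrays per group; black above and grey at or below the background level; the square passed the test). The Oprl1 estimates lie above 0, with 1422099_a_at at 0.50 and the interval of 1426204_a_at reaching below 0, and the Oprm1 estimates run from -0.31 to -0.18.

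The mu receptor gene Oprm1 showed the opposite direction at low signal. Its probe set 1425432_at read 5.76, 5.65, 5.69 and 5.74 on C1 to C4 and 5.39, 5.33, 5.56 and 5.36 on D1 to D4. All transgenic values were below all control values, and the difference was -0.30 (SE 0.08, limma adjusted p = 0.0604 over probe sets). At 1451709_at the arrays read 5.75, 6.07, 6.14 and 6.11 in control and 5.79, 5.76, 5.63 and 5.64 in transgenic ganglia, where only C1 fell among the transgenic values (difference -0.31, SE 0.10, adjusted p = 0.116). The brightest, 1459402_at, read 6.18, 6.41, 6.41 and 6.34 in control and 5.83, 6.24, 6.16 and 6.01 in transgenic ganglia, with an overlap between C1 and D2 (difference -0.28, SE 0.10, adjusted p = 0.172). The dimmest, 1451705_a_at, read 5.30 to 5.65 and 5.25 to 5.36 (difference -0.18, SE 0.08, adjusted p = 0.282). None of the 4 passed, and 1425432_at and 1451705_a_at are annotated with the same sequence record.

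Averaged over its 4 probe sets, Oprm1 read 5.80, 5.92, 5.89 and 5.96 on C1 to C4 and 5.58, 5.65, 5.68 and 5.59 on D1 to D4. These means did not overlap, with 5.89 ± 0.07 against 5.62 ± 0.05 and a difference of -0.27 (two-sided exact permutation p = 0.0286, the smallest possible). This p follows wherever groups do not overlap, as for 10.7% of all genes at their brightest probe set. When every gene was represented by the mean of its probe sets, Oprm1 was among the 472 of 18193 genes that passed (limma adjusted p = 0.0396 over genes). At its brightest probe set it did not pass (adjusted p = 0.182). The 4 Oprm1 probe sets had higher means than 70.5% to 86.4% of the olfactory receptor probe sets but none above the background level, so the size of this difference cannot be read as the change in mu receptor RNA.

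The delta and kappa receptor genes did not pass. Oprd1 (1422121_at) read 6.29, 6.42, 6.54 and 6.61 on C1 to C4 and 6.34, 6.43, 6.24 and 6.40 on D1 to D4, with overlapping groups (difference -0.11, SE 0.09, limma adjusted p = 0.513 over probe sets). The Oprk1 probe set 1451813_at read 5.94, 6.10, 6.24 and 6.29 on C1 to C4 and 5.86, 6.14, 5.94 and 5.98 on D1 to D4, again overlapping (difference -0.16, SE 0.09, adjusted p = 0.383). The other, 1446394_at, read 5.41 to 5.58 and 5.39 to 5.57 (difference -0.03, SE 0.07, adjusted p = 0.853). None of these 3 probe sets passed, each differed by a value below 0, as did 51.9% of all probe sets, and 1446394_at turned its sign in 4 of 18 alternatives.

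Genes whose levels followed those of a member most closely were sought for the 3 members over background, by Pearson's r over the 8 arrays after centring each group on its mean, among 18185 other genes. For Penk they were Gria1, an AMPA receptor subunit (r = 0.99, rho 0.98), and Tspoap1 (r = 0.97, rho 0.98). For Oprl1 they were Mrap2, an accessory protein of melanocortin receptors (r = 0.97, rho 1.00), and Knstrn (r = 0.97, rho 0.95). For Pomc they were Map3k1 and Marcks (r = 0.97 for both, rho 0.91 and 0.90). Without the 2 arrays farthest from the median of the member, r was 0.99 and 0.96 for Penk, 0.98 and 0.95 for Oprl1 and 0.90 and 0.88 for Pomc. With 8 arrays and so many genes, values this high are a ranking and no more.

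Genes that make, break down and transmit opioid peptides were followed in 4 lists, drawn up with earlier results of these data known. Their counts are therefore a description only. Of the 52 members 50 were measured. Of these 2 passed, both lower (Scg5 and Nln), 48 did not pass, against 2.00% of all genes that passed, and the median difference was -0.02 against 0.00 over all genes. Scg5, the 7B2 protein that chaperones the prohormone convertase Pcsk2, fell 2.02-fold among 7 measured genes of peptide processing. Its control arrays read 11.67, 11.70, 11.81 and 11.85 and its transgenic arrays 10.75, 10.81, 10.84 and 10.56, groups that lie far apart. The difference in Scg5 was -1.02 (SE 0.08, limma adjusted p = 4.17e-05 over genes), at the 1 probe set measured, and it passed under all 22 alternatives (-1.07 to -0.89). The list's other members did not pass, with a list median of 0.03.

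Also among the processing genes, Pcsk1, the convertase that makes the first cuts in Pomc, read 8.78 ± 0.12 and 9.00 ± 0.15 (difference 0.22, limma adjusted p = 0.247 over genes). The lysosomal protease Ctsl, which also cuts neuropeptide precursors, differed by -0.27 at its brightest probe set (adjusted p = 0.0928), while its dim probe set 1457724_at fell from 6.52 ± 0.29 to 5.04 ± 0.08, below the background level in both groups (adjusted p = 3.37e-05 over probe sets). Pcsk1 and Ctsl were named after their values were seen.

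Of 9 peptide breakdown genes 1 passed. Nln, neurolysin, a peptidase that cuts dynorphin fragments, fell 1.75-fold. Its control arrays read 7.84, 7.89, 7.90 and 7.68 and its transgenic arrays 7.22, 7.10, 6.69 and 7.06, without overlap (difference -0.81, SE 0.11, limma adjusted p = 0.00215 over genes). The dimmer Nln probe set, below the background level, read 6.10 ± 0.19 and 6.13 ± 0.10 (difference 0.04), so the fall rests on 1 probe set. Without the arrays with the most Gh the difference was -0.64 (adjusted p = 0.0616), without those with the most Acta1 it was -0.77 (adjusted p = 0.0531), and with the unequal-variance test the adjusted p was 0.167. Mme, neprilysin, an enzyme that degrades enkephalins, was named after its values were seen and differed by -0.52 (adjusted p = 0.155 over genes). The list's median was -0.03.

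None of 19 G protein and effector genes passed limma over genes (3 at an unadjusted p under 0.05, against 18.2% of all genes), and the list's median was -0.04. By the unequal-variance test 0 passed, where only 49 of all genes did. The adenylyl cyclases Adcy8 and Adcy3, whose activity opioid receptors lower, had the smallest p, with differences of 0.43 (adjusted p = 0.0801) and -0.27 (adjusted p = 0.125). The other Adcy3 probe sets differed by -0.03 to 0.04. The G protein subunit Gnb1, named after its values were seen, gave opposite signs at its probe sets. At the brightest the control arrays read 12.16, 9.99, 9.51 and 12.37, high on the arrays with the most 18S signal, against 9.74 to 10.13 on transgenic arrays (difference -1.12, adjusted p = 0.302). Its probe set 1417432_a_at rose by 0.66 (SE 0.14, limma adjusted p = 0.0347).

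None of 15 measured receptor regulators passed limma over genes either (3 at an unadjusted p under 0.05, again against 18.2% of all genes), with a list median of 0.05. The unequal-variance test passed 0 of them and 49 of all genes. Arrb1, a beta-arrestin that desensitises the receptors, averaged 9.88 ± 0.22 in control ganglia against 10.17 ± 0.18 (difference 0.29, adjusted p = 0.241). Ackr3, an atypical receptor that scavenges opioid peptides, read 7.95 ± 0.25 and 7.68 ± 0.13 (difference -0.27, adjusted p = 0.268).

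**Figure D4:**
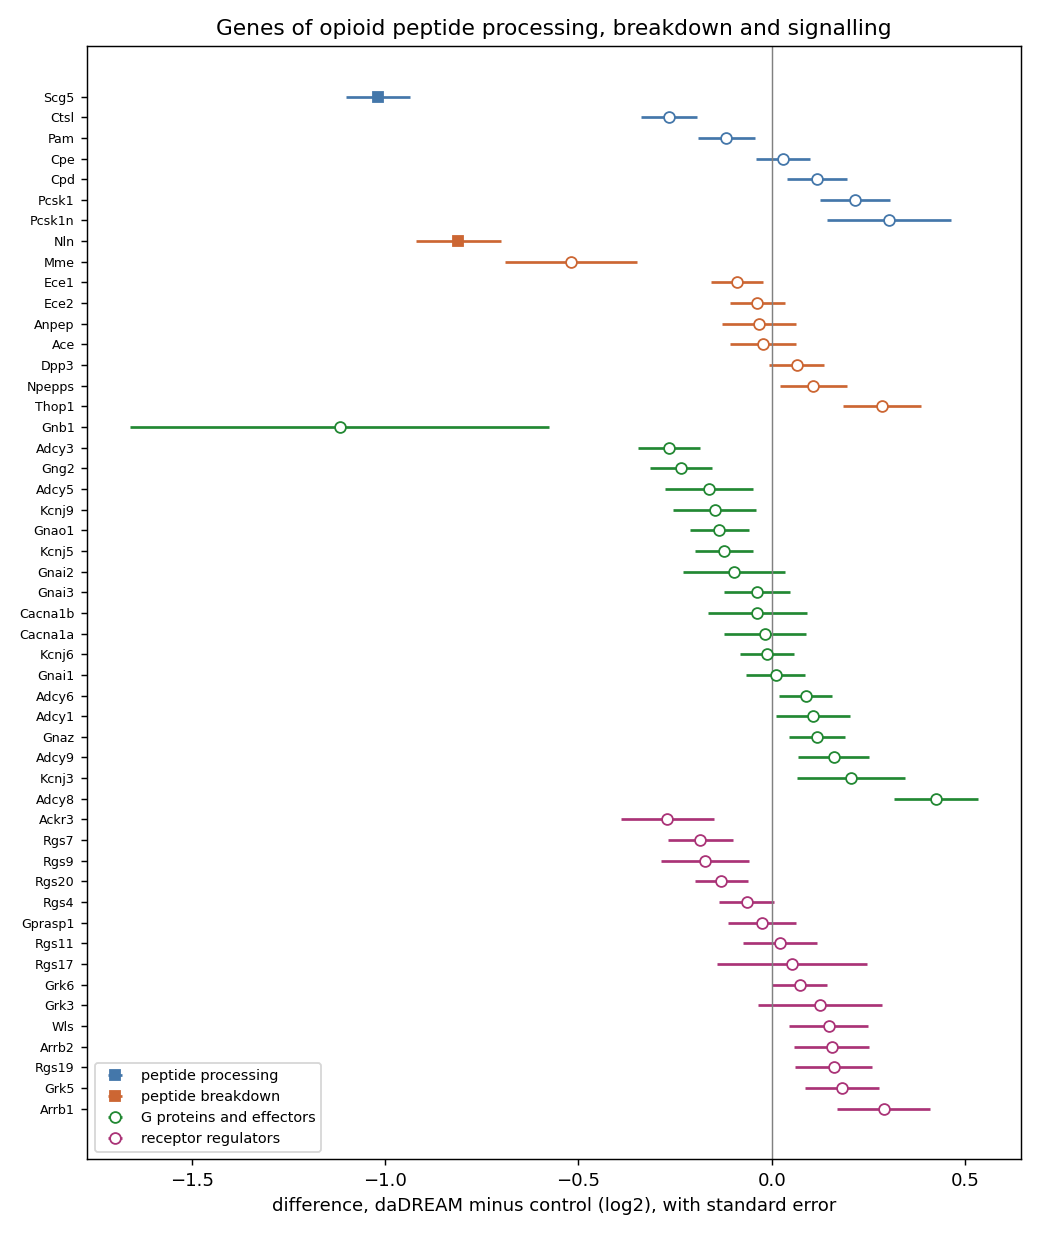
Difference in log2 expression, daDREAM minus control, of 50 genes of opioid peptide processing, breakdown and signalling, each at its brightest probe set with the standard error of the limma fit (n = 4 arrays per group; filled squares passed the test). Scg5 at -1.02 and Nln at -0.81 are the genes that passed, and Gnb1 at -1.12 has the widest error.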

How the data were processed

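The authors' deposited values are log2 RMA summaries of each probe set, made with affy, per the submitters' processing notes; its version is not given in these notes. Quantile normalization within RMA removes shifts shared by most genes. Of 45101 probe sets 64 Affymetrix controls were left out. Groups came from the sample titles. Probe sets and, separately, genes (each at its single-symbol probe set of highest mean) were compared by limma 3.58.1 under R 4.3.3 (lmFit, eBayes, two-sided, group as the only term, Benjamini-Hochberg adjustment over all features). The fit was tested on data simulated with independent arrays, which lack the differences between arrays described above. Whether arrays come from separate animals is not stated, so p-values describe only the spread among these arrays, whose number limits precision. The alternatives tried (normalization, filters, probe set rule, test, arrays left out) are in the closing section. Named pathway genes are those that passed, up to 4 per list, or otherwise the 2 with the smallest p; genes named outside this rule are marked as such. Members and lists were chosen with earlier results of these data known. Figures were drawn with matplotlib 3.10.9.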

Additional observations from a re-analysis of the deposited data

Results flagged for a closer look

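At the Oprk1 probe set 1446394_at, array D2 read 5.57, apart from the other transgenic arrays, of which the nearest read 5.41; this gap was 0.89 of the group's range. It was the 1 such gap among 42 groups of 4 arrays examined, where chance gives about 1 in 20, and the signal was below the background level.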

How the results depend on the processing

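Oprm1 (4 probe sets) and Oprl1 (3) kept the sign of their differences under every alternative run, and Scg5 passed under all 22. With the replicate number as a block, 3 opioid probe sets, 2 opioid genes and 4 pathway genes passed. The opioid genes were Penk (limma adjusted p = 0.0376) and Oprl1 (adjusted p = 0.0343). Calls rose from 1236 to 2017 over all probe sets and from 364 to 672 over all genes. Same-numbered arrays correlated at 0.31, 0.04, 0.35 and 0.38 in their deviations from group means. C1, C3 and C4 each correlated best with the array of their own number, but C2 correlated best with D1 (0.29). Since C2 did not match D2, the main fit has no block, and whether the numbers pair the arrays was not settled. By the unequal-variance test 0 opioid probe sets and 1 pathway gene passed. At an adjusted p under 0.1 these were 3 opioid probe sets, 1 opioid gene and 4 pathway genes. Opioid genes that passed numbered 1 with the mean of a gene's probe sets (Oprm1) and 1 with its most variable probe set (Oprl1), where 4 pathway genes passed; over all genes these settings gave 472 and 697. Without C1 and C4 (18S) 0 opioid probe sets passed. Without the arrays with the most Gh, or the most Acta1, 1 pathway gene passed (Scg5). Leaving out each array in turn gave 0 to 1 opioid probe sets; an Oprm1 probe set passed without C1 (1451709_at, -0.40, adjusted p = 0.0261) and another without D3 (1425432_at, -0.35, adjusted p = 0.0493). Signs turned only for differences near 0 and for Pomc, and the cause was not tested. Pomc was at -0.28 and -0.24 without the arrays with the most Gh. Pdyn was at -0.065 without the 18S arrays, -0.005 without the Acta1 arrays, and -0.012 to 0.082 over single arrays left out. Pnoc was at -0.013 without the 18S arrays and ran from -0.065 to 0.078 over single arrays left out. Oprk1 (1446394_at) was at 0.023 with quantile normalization renewed, 0.0017 without the arrays with female signal, 0.018 without the 18S arrays, and -0.075 to 0.0025 over single arrays left out. Of all genes 364 passed as reported, 49 by unequal variance, 703 at an adjusted p under 0.1, 229 without D2, 236 without D3 and 98 without the Gh arrays; of all probe sets 1236 passed, with 166 to 2284 over the alternatives. A signal at or below background limits what can be read for Pdyn, Pnoc, Oprm1, Oprd1 and Oprk1.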
